A study of Mus musculus with 43 samples.

Results

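The integrin subunits of the intestinal epithelium were followed across irradiation, TGFB1, day and time in mouse organoids and in crypt cells. The 10 genes are 5 alpha chains (Itga2, Itga3, Itga5, Itga6 and Itgav) and 5 beta chains (Itgb1, Itgb4, Itgb5, Itgb6 and Itgb8), taken by symbol. Each was found once among the 23951 gene rows of the bulk expression tables and once among the 54307 gene rows of the single-cell matrices. The organoids were wild-type C57BL/6 primary intestinal cultures grown in Matrigel, a gel of basement membrane proteins. Bulk RNA came from 6 groups of 3 libraries. The groups called D7 IR and D11 IR had been irradiated with 4 Gy on day 4 and were taken on day 7 and day 11, and the group called D7 non-IR was taken on day 7 without irradiation. Each came with vehicle or with TGFB1 at 2 ng/mL, which was added on day 6 and left for 24 h. By this schedule the D7 organoids were taken as the exposure ended and the D11 organoids days after it. Single-cell libraries came from irradiated organoids (4 Gy on day 4) collected on day 8 after 6, 15 or 24 h of 1 ng/mL TGFB1 or after vehicle for 24 h, here called 0 h, with 1 library each. A second single-cell set held cells sorted as Ki67-RFP positive and DAPI negative from crypts of the proximal small intestine of Mki67tm1.1Cle/J mice, whose Ki67 is tagged with a red fluorescent protein. It had 1 library of non-irradiated littermates and 2 libraries taken 56 h after 12 Gy to the whole body. The labels do not say that replicates came from separate cultures or mice, so p-values measure the spread between these libraries, which may be technical.

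Integrins are receptors made of 1 alpha and 1 beta chain that tie cells to the extracellular matrix. ITGB1 pairs with ITGA2 to bind collagens, with ITGA3 and ITGA6 to bind laminins, and with ITGA5 to bind fibronectin. ITGB4 pairs only with ITGA6, and this receptor anchors epithelial cells to laminin through hemidesmosomes. ITGAV pairs with ITGB5, which binds vitronectin, and with ITGB6 and ITGB8, both of which bind the latent form of TGFB1 and help to release the active ligand. ITGB6 is an epithelial chain that is low in resting epithelia and known to rise during wound repair.

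Bulk RNA values are FPKM, fragments scaled to transcript length and library total, whose read depth is unknown. The 18 libraries summed to between 447728 and 621996 FPKM and listed between 11040 and 11361 genes above 1 FPKM. The single-cell libraries kept between 699 and 4283 cells, with median depths between 6709 and 14398 UMIs (unique molecular identifiers, which count captured RNA molecules). The 6 epithelial markers (Epcam, Cdh1, Vil1, Krt8, Krt18 and Krt19) summed to between 4705 and 14673 FPKM in the bulk libraries. The 8 mesenchymal markers summed to at most 0.885 FPKM and the 4 endothelial markers to at most 0.601 FPKM. The 6 immune markers summed to between 4.83 and 23.5 FPKM, while Ptprc, the pan-leukocyte gene, had group means of at most 0.0617 FPKM. The epithelial, mesenchymal and endothelial lists therefore matched the tissue label. The source of the immune list's signal was not tested. In bulk samples, a change in how many cells express a gene and a change in RNA per cell cannot be told apart.

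TGFB1 raised nearly the whole set at day 7. In D7 non-IR organoids all 9 tested subunits rose, where 33.3% of the 11330 genes tested rose and 34.9% fell. In D7 IR organoids all 9 rose again, against 35.8% of all genes higher and 39.7% lower. At D11, 8 of the 9 were higher in the organoids that had received TGFB1 and 1, Itgb5, was lower, against 32.3% higher and 31.6% lower. A call is a limma adjusted p under 0.05, computed over all genes whose mean FPKM was 1 or more, a filter that Itgb8 did not pass. Called and at least 2-fold on the log2(FPKM + 1) scale were 8 of the 9 in D7 non-IR organoids (5.52% of all genes higher, 2.92% lower), 6 in D7 IR organoids (7.79% and 5.39%) and 4 at D11 (5.67% and 8.04%), all of them higher. The median log2 change of the 9 subunits was 1.18, 1.34 and 0.92 in the 3 tables, beside -0.02, -0.03 and 0.01 over all genes tested. Vehicle and TGFB1 libraries did not overlap for any subunit in any table, which covers 30 pairs of gene and table. The pairs of Itgb8 are included, with vehicle values of 0. The share of all genes that did not overlap within a table was not counted, so this describes the subunits only. The epithelial markers moved with the subunits at day 7: 6 of 6 rose in D7 non-IR organoids (median log2 change 1.19) and 6 of 6 in D7 IR organoids (1.14), while 1 rose and 1 fell at D11 (0.11). The immune list moved too, through Cd68 and Lyz2, macrophage markers: its summed level was in D7 non-IR organoids between 8.28 and 10.2 FPKM (vehicle) and between 21.5 and 23.5 FPKM (TGFB1), between 4.83 and 6.60 and between 13.3 and 14.1 FPKM in D7 IR organoids, and between 6.11 and 9.72 and between 12.5 and 15.2 FPKM at D11. The summed level of the epithelial markers was between 5002 and 5077 FPKM for vehicle and between 12794 and 13362 FPKM for TGFB1, both in D7 non-IR organoids. In D7 IR organoids it was between 5338 and 5484 FPKM and between 13556 and 14673 FPKM. At D11 it was between 4705 and 5829 FPKM and between 6617 and 7226 FPKM. The part of these marker lists in the integrin result was not tested.

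**Figure D1:**
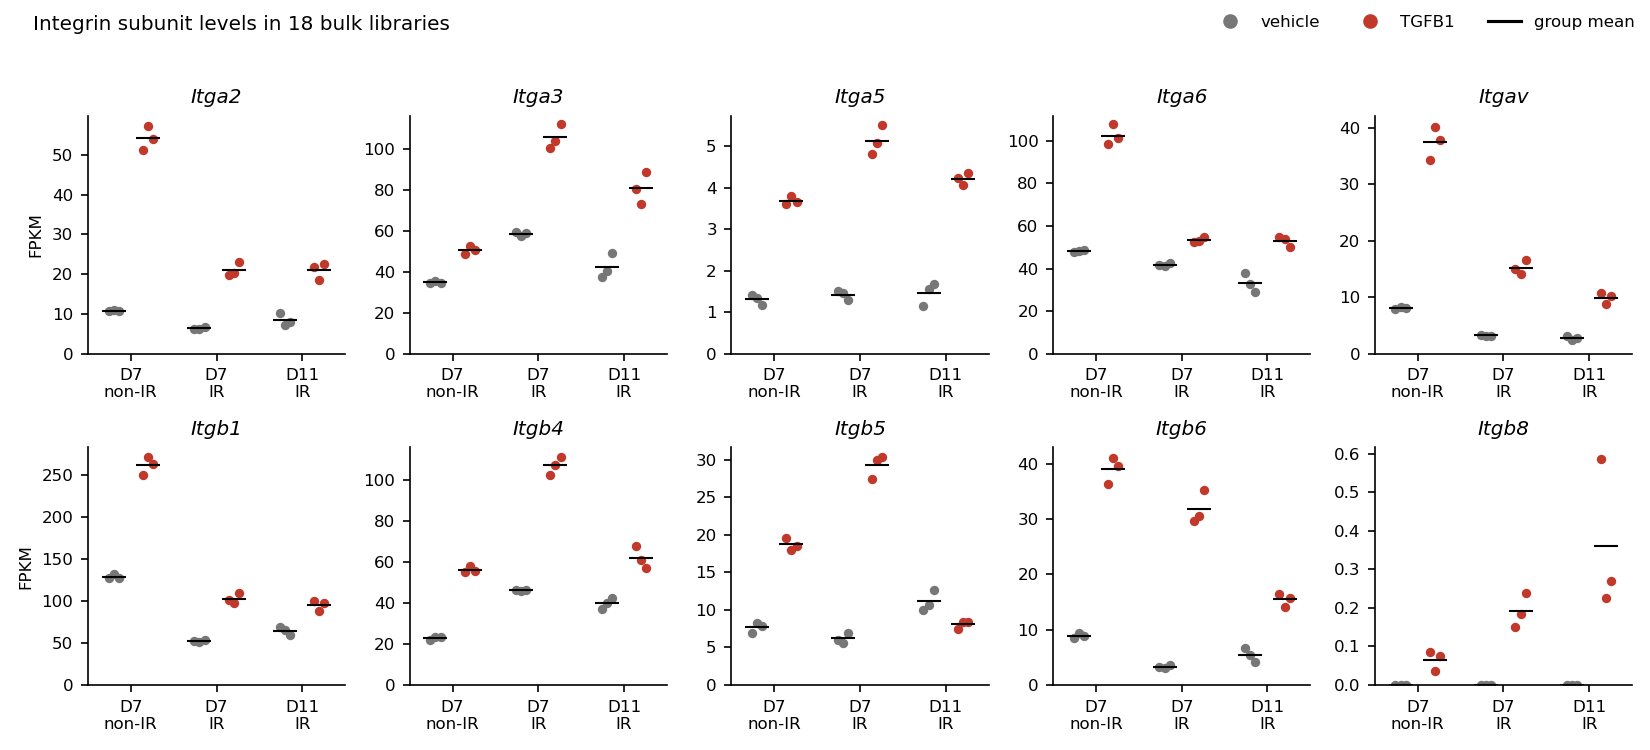
FPKM (vertical axes, linear, starting at 0) of the 10 integrin subunits in the 18 bulk libraries, with 3 points a group (grey for vehicle, red for TGFB1) and a black line at each group mean. In every panel the TGFB1 points lie above the vehicle points of the same table, except for Itgb5 at D11, where they lie below them.

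Taken over the 3 tables, the chains that bind latent TGFB1 or vitronectin gave the widest range of responses. Their log2 changes ran from -0.41 (Itgb5 at D11) to 2.92 (Itgb6 in D7 IR organoids). Those of the other tested chains ran from 0.34 (Itga6 in D7 IR organoids) to 2.23 (Itga2 in D7 non-IR organoids). Within each D7 table alone, the other chains had the wider range. The promoters of Itgav and of its partners Itgb5, Itgb6 and Itgb8 are shown here because these genes moved together at day 7 and Itgb5 went its own way at day 11. They are RefSeq sequences of build GRCm38.p6, running 5′ to 3′ along the gene from 250 bases before to 50 bases after its start. Itgav lies on the plus strand (chr2:83724147-83724446), as does Itgb5 (chr16:33829415-33829714). Itgb6 lies on the minus strand (chr2:60722554-60722853, the first of 2 starts in the table), as does Itgb8 (chr12:119238227-119238526). Capitals mark matches, on either strand, to any of 5 motifs searched: TGANTCA (bound by AP-1), GTCTAGAC and CAGACA (bound by SMAD proteins), GGAATG (bound by TEAD factors) and GGGCGG (bound by KLF and SP factors).
Itgav: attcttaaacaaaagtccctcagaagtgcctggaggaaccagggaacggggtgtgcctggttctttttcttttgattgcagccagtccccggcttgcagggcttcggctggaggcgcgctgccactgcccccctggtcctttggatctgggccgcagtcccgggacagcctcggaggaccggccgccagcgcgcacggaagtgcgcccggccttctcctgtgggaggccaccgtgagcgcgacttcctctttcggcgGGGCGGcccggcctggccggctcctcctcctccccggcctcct
Itgb5: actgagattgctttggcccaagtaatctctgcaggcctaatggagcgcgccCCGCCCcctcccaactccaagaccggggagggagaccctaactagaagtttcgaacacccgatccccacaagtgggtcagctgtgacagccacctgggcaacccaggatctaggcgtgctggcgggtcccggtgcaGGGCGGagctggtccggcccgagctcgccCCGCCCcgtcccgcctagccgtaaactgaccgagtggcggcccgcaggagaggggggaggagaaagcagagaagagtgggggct
Itgb6: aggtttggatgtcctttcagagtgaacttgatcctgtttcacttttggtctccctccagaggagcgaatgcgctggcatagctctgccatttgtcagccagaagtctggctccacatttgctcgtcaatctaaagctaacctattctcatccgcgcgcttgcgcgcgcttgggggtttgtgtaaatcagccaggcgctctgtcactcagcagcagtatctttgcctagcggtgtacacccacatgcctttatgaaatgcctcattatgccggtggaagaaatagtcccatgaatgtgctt
Itgb8: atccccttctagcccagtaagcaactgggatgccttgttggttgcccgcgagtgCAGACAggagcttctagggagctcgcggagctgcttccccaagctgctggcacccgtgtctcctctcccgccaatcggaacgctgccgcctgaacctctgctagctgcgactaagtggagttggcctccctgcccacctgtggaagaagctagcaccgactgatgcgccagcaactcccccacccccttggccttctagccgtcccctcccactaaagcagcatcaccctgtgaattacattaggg
The Itgb5 window holds GGGCGG 3 times and the Itgav window once, the Itgb8 window holds CAGACA once, and the Itgb6 window holds none of the 5 motifs. Promoters matched 8 of the 10 genes, with 10 start sites in all. GGGCGG was found in 7 of these 10 windows, beside 35.6% of all 32817 promoters of the table, and CAGACA in 4, beside 21.0%. The windows with GGGCGG held between 58.7% and 67.3% G and C bases, except the second start of Itga3 (52.3%). The median of all promoters was 52.7%. The part of base content in the GGGCGG count was not tested. GGAATG was found in 1 (Itgb1), beside 14.7% of all promoters, TGANTCA in 1 (the second start of Itga3), beside 7.81%, and GTCTAGAC in 0, beside 0.213%. GTCTAGAC and CAGACA can share bases, and no window here holds both. A match describes letters in this window and says nothing of binding.

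Itgb6 had the largest change of the subunits in D7 IR organoids. In D7 non-IR organoids it stood at 8.58, 9.39 and 8.82 FPKM with vehicle and at 36.4, 41.1 and 39.6 FPKM with TGFB1, a ratio of means of 4.37. In D7 IR organoids the vehicle libraries were lower, at 3.32, 3.05 and 3.67 FPKM, and the TGFB1 libraries reached 29.7, 30.5 and 35.2 FPKM, a ratio of 9.51. The change was 2.01 ± 0.05 (SE) and 2.92 ± 0.08 on the log2(FPKM + 1) scale (limma adjusted p = 1.84e-10 and 3.8e-10). At D11 the values were 6.76, 5.46 and 4.16 FPKM with vehicle and 16.5, 14.1 and 15.8 FPKM with TGFB1, a ratio of 2.84 (log2 change 1.37 ± 0.14, limma adjusted p = 2.03e-05).

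Itgb5 changed direction between the days. With vehicle it stood at 6.97, 8.28 and 7.88 FPKM in D7 non-IR organoids and with TGFB1 at 19.6, 17.9 and 18.6 FPKM. In D7 IR organoids it went from 6.04, 5.65 and 6.89 FPKM to 27.4, 30.0 and 30.4 FPKM. The ratios of means were 2.43 and 4.72 (log2 changes 1.18 ± 0.06 and 2.07 ± 0.07, limma adjusted p = 3.22e-08 and 1.57e-09). At D11 the order was turned: vehicle libraries held 9.95, 10.7 and 12.7 FPKM and TGFB1 libraries 7.42, 8.37 and 8.39 FPKM. The mean was 11.1 ± 1.4 FPKM with vehicle and 8.06 ± 0.55 FPKM with TGFB1 (SD, n = 3), so it was 1.38 times as high with vehicle (log2 change -0.41 ± 0.10, limma adjusted p = 0.00535). The groups did not overlap, and the call held without each of the 6 libraries in turn.

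Itgav, the shared partner of these chains, rose in all 3 tables. Its vehicle libraries held 7.94, 8.20 and 7.99 FPKM in D7 non-IR organoids, 3.36, 3.18 and 3.14 FPKM in D7 IR organoids and 3.12, 2.45 and 2.74 FPKM at D11. With TGFB1 they held 34.4, 40.2 and 37.8 FPKM, 14.9, 14.1 and 16.6 FPKM, and 10.8, 8.70 and 10.2 FPKM. The ratios were 4.66, 4.71 and 3.57, with log2 changes of 2.09 ± 0.06, 1.94 ± 0.07 and 1.53 ± 0.11 (largest limma adjusted p = 2.26e-06).

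Itgb8 was listed at 0 in all 9 vehicle libraries and above 0 in all 9 TGFB1 libraries, at a very low level. The TGFB1 libraries held 0.0858, 0.0372 and 0.0753 FPKM in D7 non-IR organoids, 0.151, 0.183 and 0.238 FPKM in D7 IR organoids and 0.587, 0.226 and 0.269 FPKM at D11. It failed the filter on low values in every table. Fitted with no filter it was called higher in each of them (limma adjusted p = 0.0145, 0.000401 and 0.00704), where 24.5%, 27.4% and 24.2% of all genes were. No ratio is given against a group listed at 0, which can also be a failed estimate.

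Among the collagen, laminin and fibronectin receptors, Itga2 had the largest change without irradiation. It went from 10.8, 10.9 and 10.6 FPKM to 51.3, 57.3 and 54.1 FPKM in D7 non-IR organoids, from 6.29, 6.13 and 6.78 to 19.7, 20.3 and 23.1 FPKM in D7 IR organoids, and from 10.2, 7.09 and 7.83 to 21.9, 18.6 and 22.5 FPKM at D11. The ratios were 5.03, 3.29 and 2.51 (log2 changes 2.23 ± 0.05, 1.57 ± 0.07 and 1.24 ± 0.12, largest limma adjusted p = 1.94e-05). Itga5, the fibronectin receptor chain, was the lowest of the tested subunits. It went from 1.42, 1.34 and 1.16 FPKM to 3.59, 3.81 and 3.65 FPKM in D7 non-IR organoids and reached 4.81, 5.07 and 5.51 FPKM in D7 IR organoids and 4.22, 4.06 and 4.35 FPKM at D11, from vehicle means of 1.41 and 1.46 FPKM. Its ratios were 2.83, 3.63 and 2.89, and its log2 changes of 1.03, 1.34 and 1.09 understate them, since the pseudocount of 1 weighs on so low a gene.

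Itgb1, the common beta chain, was the most abundant subunit in the D7 non-IR groups, the most abundant at D11 and, with vehicle, the second to Itga3 in D7 IR organoids. It went from 127, 133 and 128 FPKM to 250, 272 and 264 FPKM in D7 non-IR organoids, from 52.5, 51.3 and 54.2 to 101, 97.5 and 109 FPKM in D7 IR organoids, and from 69.2, 65.2 and 59.9 to 100.4, 87.8 and 97.4 FPKM at D11. Its log2 changes were 1.01 ± 0.04, 0.95 ± 0.05 and 0.55 ± 0.09 (largest limma adjusted p = 0.000363).

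The laminin receptor chains split by irradiation. Itga6 went from 47.7, 48.3 and 48.8 FPKM to 98.5, 108 and 101 FPKM in D7 non-IR organoids but only from 41.8, 41.2 and 42.6 to 52.3, 53.0 and 54.9 FPKM in D7 IR organoids. At D11 it went from 38.0, 32.6 and 28.8 to 54.8, 54.0 and 50.3 FPKM. Its log2 changes were 1.07 ± 0.04, 0.34 ± 0.04 and 0.67 ± 0.10 (largest limma adjusted p = 0.000247). Itga3 moved the other way, with means of 34.9 and 50.7 FPKM in D7 non-IR organoids, 58.7 and 106 FPKM in D7 IR organoids and 42.4 and 81.0 FPKM at D11 (log2 changes 0.53, 0.84 and 0.92). Itgb4, the hemidesmosomal chain, went from 21.8, 23.4 and 23.2 FPKM to 55.0, 57.8 and 55.6 FPKM in D7 non-IR organoids, from 46.1, 45.6 and 46.3 to 102, 107 and 111 FPKM in D7 IR organoids, and from 37.0, 40.0 and 42.5 to 67.6, 60.7 and 57.1 FPKM at D11. Its log2 changes were 1.26, 1.20 and 0.62.

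Whether the response differed with irradiation or with day was tested with interaction terms, in which any scale factor shared by the libraries of 1 table drops out. At D7 the change was larger in irradiated organoids for 4 of 9 subunits and smaller for 2, where 25.3% of 11411 genes had a higher and 27.8% a lower term. Itgb6 (0.91 ± 0.10) and Itgb5 (0.89 ± 0.10) had the highest terms on the log2 scale, followed by Itga5 (0.32) and Itga3 (0.31). Itga6 (-0.73 ± 0.05) and Itga2 (-0.66 ± 0.08) had the lowest. The term of Itga5 was called with a pseudocount of 1 (limma adjusted p = 0.0146) and not with 0.1 (0.0523). Itgav (-0.15), Itgb1 (-0.06) and Itgb4 (-0.06) did not pass, with limma adjusted p = 0.173, 0.417 and 0.354. Without D7 IR TGFB1 replicate 3, Itgav passed as well (-0.21, limma adjusted p = 0.0473).

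Between the days, the response of irradiated organoids was smaller at D11 for 5 of 9 subunits and larger for 1, where 31.5% of 11456 genes had a higher and 33% a lower term. The largest terms were those of Itgb5 (-2.49 ± 0.13) and Itgb6 (-1.55 ± 0.17), followed by Itgb4 (-0.58), Itgav (-0.41) and Itgb1 (-0.40). Itga6 had a larger response at D11 (0.33 ± 0.11, limma adjusted p = 0.0191). Itga2 (-0.33, limma adjusted p = 0.0725), Itga5 (-0.25, 0.106) and Itga3 (0.08, 0.585) did not pass. Itga2 did pass without D11 IR vehicle replicate 2 (limma adjusted p = 0.0217), and Itga5 without D11 IR vehicle replicate 1 (0.0139). The D7 IR libraries enter both interaction terms. All 6 epithelial markers also had a lower term between the days, with a median of -0.99.

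**Figure D2:**
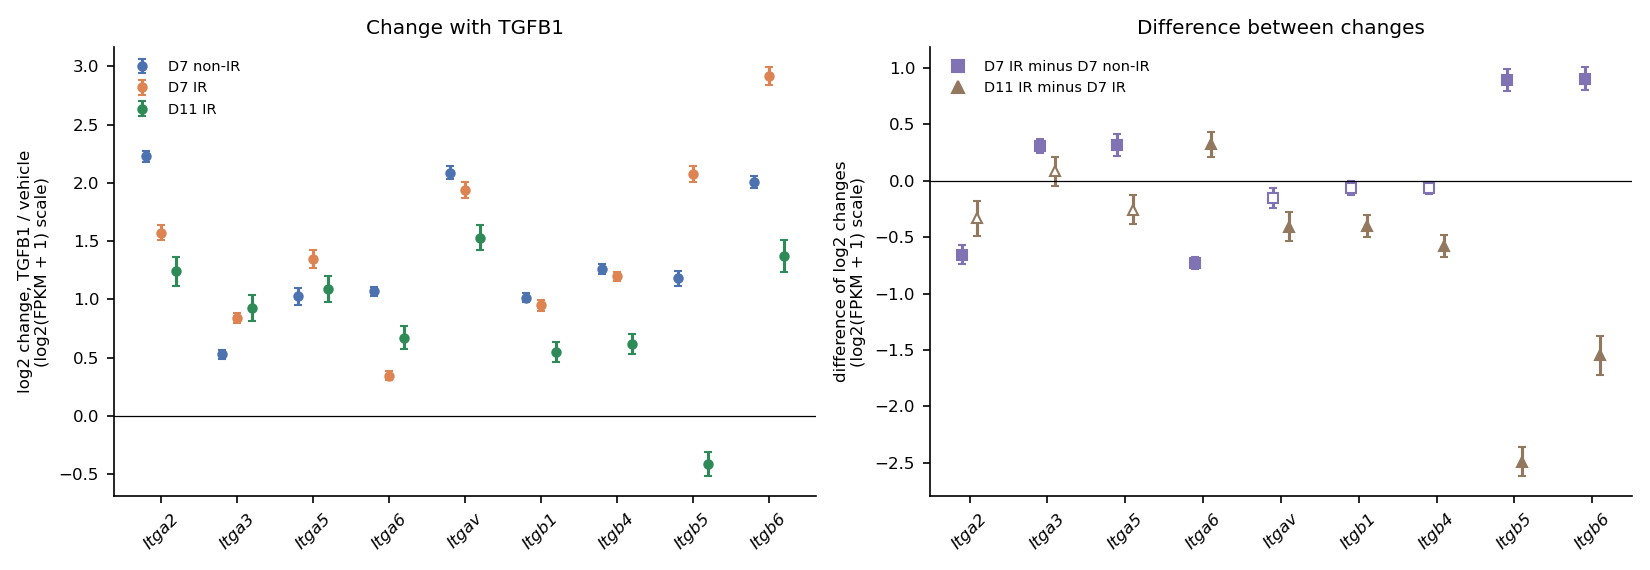
Left, log2 change with TGFB1 on the log2(FPKM + 1) scale for 9 subunits in the 3 tables, and right, the difference between those changes (D7 IR minus D7 non-IR as squares, D11 IR minus D7 IR as triangles), with bars of 1 standard error and open symbols for terms not called. Itgb5 and Itgb6 have the largest terms between the days, and the change of Itgb5 at D11 is the only one below 0.

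Levels between tables are given without a test, since the tables may have been scaled separately. With vehicle, D7 IR libraries lay above all D7 non-IR libraries for 2 of 9 subunits and below them for 6, where 40.7% and 44.3% of all genes did so. Itgb4 was 2.01 times and Itga3 1.68 times as high with irradiation. Itgb6 was 2.67 times, Itgav 2.49 times, Itgb1 2.45 times and Itga2 1.68 times as high without it, and Itgb5 and Itga6 differed by less (1.24 and 1.15 times). Itga5 overlapped. With TGFB1, 4 subunits were higher and 5 lower in D7 IR organoids, against 38.4% and 45.7% of all genes, and Itgb5 was among the higher ones (1.56 times). From D7 to D11 with vehicle, 4 were higher and 4 lower, against 33.7% and 33.1%, led by Itgb5 (1.80 times as high at D11) and Itgb6 (1.63 times). From D7 to D11 with TGFB1, 0 were higher and 6 lower, against 38.7% and 38.8%. Itgb5 was 3.63 times, Itgb6 2.06 times and Itgb4 1.73 times as high at D7.

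The order of the 6 groups therefore differed between subunits. Itgb6 and Itgav were highest in D7 non-IR organoids with TGFB1, as were Itga2, Itga6 and Itgb1. Itgb5, Itgb4, Itga3 and Itga5 were highest in D7 IR organoids with TGFB1. Neighbours in the order that overlapped were the D7 IR and D11 IR groups with TGFB1 for Itga2, Itga6 and Itgb1, the D7 non-IR vehicle and D11 TGFB1 groups for Itgb5, the D7 non-IR and D11 groups with TGFB1 for Itgb4, the D11 vehicle and D7 non-IR TGFB1 groups for Itga3, and the 3 vehicle groups for Itga5. For Itgb8 the D7 IR and D11 IR groups with TGFB1 overlapped.

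Since FPKM are per length, the make-up of the chains can be set side by side. Itgb1 held 76.6% of the FPKM of the 5 beta chains in D7 non-IR organoids with vehicle and 37.9% in D7 IR organoids with TGFB1, where Itgb4 held 39.5%. Itgb6 held 5.29% (vehicle) and 10.4% (TGFB1) in D7 non-IR organoids, 3.09% and 11.7% in D7 IR organoids, and 4.49% and 8.55% at D11. The ratio of Itgb6 to Itgb5 in D7 non-IR organoids was 1.16 ± 0.06 for vehicle and 2.09 ± 0.22 for TGFB1 (SD, n = 3). It was 0.541 ± 0.008 and 1.09 ± 0.07 in D7 IR organoids, and 0.505 ± 0.176 and 1.93 ± 0.27 at D11. In each table the 3 ratios with TGFB1 lay above the 3 with vehicle.

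For each subunit the gene with the nearest pattern was sought over the 18 libraries, by Pearson r of log2 values centred within each table, among the 9040 other genes whose mean FPKM was 5 or more (9041 for Itga5 and Itgb8). These were Xk for Itgav (r = 0.997), Ccdc71l for Itgb4 (0.996), Lgals3 for Itga5 (0.996), Osbpl3 for Itgb6 (0.995), Rgs12 for both Itgb1 (0.995) and Itga2 (0.993), Ephb3 for Itga6 (0.991), Atp6ap1 for Itga3 (0.991), Acat1 for Itgb5 (0.986) and Zfp410 for Itgb8 (0.943). The libraries share only the treatment contrast within each table, so any gene with like responses scores high.

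The ligands and partners of these receptors were counted from lists, some of them of only a few tested genes. Over all genes tested, 33.3% rose and 34.9% fell in D7 non-IR organoids, 35.8% and 39.7% in D7 IR organoids, and 32.3% and 31.6% at D11. Of the laminin chains, 7 of 7 rose in D7 non-IR organoids, 6 of 6 in D7 IR organoids and 6 of 6 were higher at D11. Lama3 and Lamb3, which encode laminin chains of the epithelial basement membrane, rose by 5.24 and 1.47 on the log2 scale in D7 non-IR organoids and by 4.86 and 2.03 in D7 IR organoids. Lama3 went from a mean of 0.555 to 57.9 FPKM in D7 non-IR organoids, and at D11 from 0.625 to 10.4 FPKM. In both of these comparisons it passed the filter on low values only through the TGFB1 libraries, so it could not have been counted as lower. Of the hemidesmosome partners 3 of 3 rose at D7 in both tables and 1 of 3 at D11. Plec, the plectin gene that links ITGB4 to keratin, had log2 changes of 1.65, 1.56 and 0.19. Cd151, a tetraspanin bound to laminin receptors, rose by 0.43 and 1.02 at D7.

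Of 17 adhesion adaptors and kinases tested, 16 rose and 1 fell in D7 non-IR organoids, 15 rose and 1 fell in D7 IR organoids, and 12 rose and 0 fell at D11. Flna, which links integrins to actin, changed by 1.71, 2.30 and 2.03, and Tns4, a tensin, by 2.12, 2.02 and 1.19. Actn1, an actin cross-linker, rose by 1.17 in D7 non-IR organoids, and Vcl, the vinculin gene, by 1.35 in D7 IR organoids. Of 5 regulators of integrin activity, 3 rose and 1 fell in each D7 table, and 3 rose and 0 fell at D11. Rap1b, a small GTPase that activates integrins, changed by 0.87, 0.95 and 0.95, while Itgb1bp1, which holds ITGB1 inactive, changed by -0.22 and -0.32 at D7. Of the other matrix ligands, 1 rose and 1 fell of 2 tested in D7 non-IR organoids, 5 rose and 1 fell of 7 in D7 IR organoids, and 6 rose and 1 fell of 7 at D11. Fn1, the fibronectin gene, went from a mean of 0.224 to 6.72 FPKM in D7 IR organoids and from 0.299 to 38.0 FPKM at D11. Like Lama3, it passed the filter only through the TGFB1 libraries, in D7 IR organoids as well as at D11, so it could not have been counted as lower. Hspg2, the perlecan gene, was the member that fell in the D7 tables (-0.44 in D7 non-IR organoids and -1.86 in D7 IR organoids), and Spp1, the osteopontin gene and a ligand of ITGAV receptors, changed by 5.39 at D11. Of the genes for latent TGFB and its carriers, 2 of 2 rose in each D7 table and 2 of 3 at D11. Ltbp4, a carrier of latent TGFB, changed by 1.63, 2.00 and 0.54. Tgfb1 itself changed by 1.42 and 2.97 at D7, and at D11 its means were 14.3 FPKM with vehicle and 13.3 FPKM with TGFB1, which did not pass. Of 17 other integrin subunits, 4, 1 and 1 passed the filter on low values in the 3 tables. Of these, 2 rose and 1 fell in D7 non-IR organoids (Itga9 by 1.96 and Itga1 by 0.22, and Itgam by -0.56), Itga1 rose in D7 IR organoids (0.65), and 0 changed at D11 (limma, with Itga1 at 0.16).

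The single-cell time course gave levels by hours of TGFB1 in irradiated D8 organoids, at 1 ng/mL where the bulk organoids had 2 ng/mL. Values are CPM, the UMIs of a gene scaled to a common library total, over all kept cells of a library, with exact Poisson 95% intervals that cover counting error only, and 1 library a time allows no test. In each comparison, 8 subunits had at least 10 CPM in either of the libraries compared. Of these, 2 were past 1.5-fold above 0 h at 6 h, 6 at 15 h and 6 at 24 h. As far below were 0. Of all genes at that level, 3.47%, 7.48% and 11.9% were as far above, and 1.45%, 4.9% and 6.48% as far below. Itgb6, at 8.89 CPM at 0 h, met the level only through the later libraries and is among the subunits counted at each time. From 6 h to 15 h, 1 of the 8, Itgb6, was past 1.5-fold (3.14% of all genes above, 4.46% below), and from 15 h to 24 h 0 were (2.94% and 1.46%). The epithelial markers summed to 5519, 7209, 9316 and 10406 CPM at 0, 6, 15 and 24 h, so they were higher at each later time as well, and their part was not tested.

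Itgb5 had the largest ratio to its 0 h level at 6 h among the 8 subunits at 10 CPM or more, 2.79. It stood at 10.1 CPM (8.94 to 11.4) at 0 h, 28.2 (26.4 to 30.0) at 6 h, 33.0 (30.9 to 35.3) at 15 h and 28.2 (26.3 to 30.1) at 24 h, so most of its difference was there at 6 h. Itgb6 was higher at each later time, at 8.89 CPM (7.80 to 10.1), 14.6 (13.3 to 16.0), 29.7 (27.7 to 31.9) and 44.3 (42.0 to 46.7), which is 4.98 times its 0 h level at 24 h. The intervals of Itgb6 did not touch between any of the 4 times.

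Itgav followed at 12.7, 15.8, 22.2 and 32.1 CPM, Itga2 at 17.3, 19.0, 28.3 and 35.7 CPM and Itgb4 at 33.4, 41.8, 60.2 and 73.4 CPM. Itga3 stood at 43.0, 49.3, 64.6 and 76.3 CPM and Itgb1 at 85.9, 91.6, 102 and 120.5 CPM, the latter 1.40 times its 0 h level at 24 h. Itga6 had its highest value at 6 h, with 101, 147, 126 and 123 CPM. Itga5 stayed low, at 0.658, 1.05, 1.63 and 2.29 CPM. Itgb8 was all but absent at the early times, with 0.25 UMIs at 0 h and 0 at 6 h, which allows up to 0.114 CPM by its interval, and reached 8 UMIs at 15 h and 34.2 UMIs at 24 h, or 1.12 CPM (0.773 to 1.56).

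**Figure D3:**
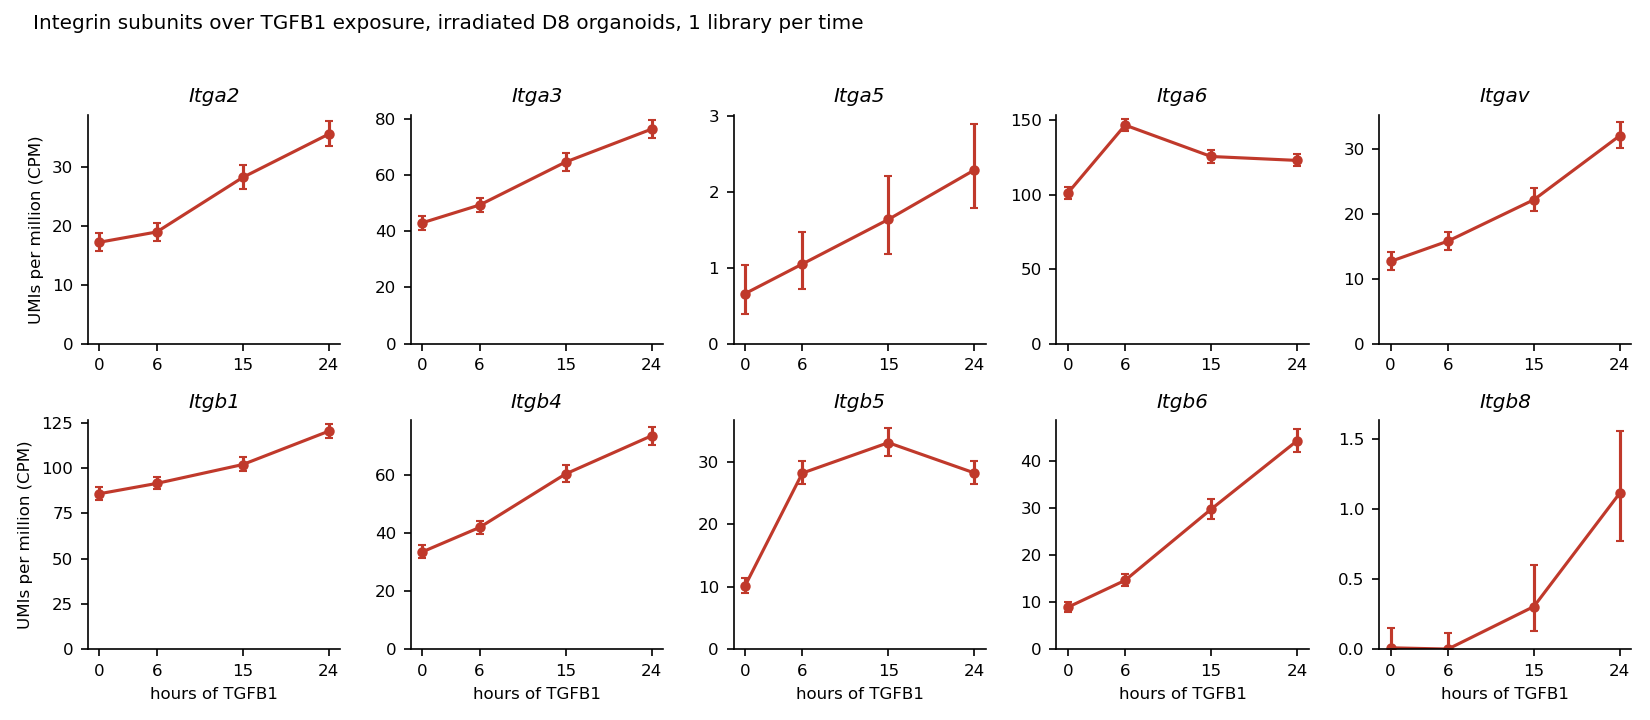
CPM (vertical axes, linear, starting at 0) of the 10 subunits in irradiated D8 organoids after 0, 6, 15 and 24 h of TGFB1 (horizontal axis), with 1 library a time and bars for the exact Poisson 95% interval. Itgb5 is near its highest value at 6 h, Itga6 is highest at 6 h, and the other 8 subunits are highest at 24 h.

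The share of cells in which a gene had any UMI was taken after thinning each cell to 2000 UMIs, since the 24 h cells were deeper (median 10440 UMIs, against 8201 at 0 h). For Itgb6 it was 1.47% at 0 h, 2.71% at 6 h, 4.29% at 15 h and 6.72% at 24 h, and without thinning 7.30%, 9.06%, 17.4% and 25.2%. For Itgb5 it was 2.25%, 5.19%, 6.51% and 5.41%, and for Itgav 2.69%, 3.20%, 3.70% and 5.37%. Free RNA can add UMIs to cells that do not express a gene. At 24 h the enterocyte-like cluster held 6.45 CPM of Itgb6 (17 UMIs in 153 cells), against 44.3 CPM in the whole library.

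Clusters were made without the 10 genes and named only from marker lists. In organoids, cluster 7, called regenerative-like from markers such as Anxa8, Anxa1 and Msln, had the highest level of 6 subunits with the cells of the 4 times pooled: Itgb6 (110.1 CPM, next 38.2 in the stem-like cluster 2), Itgav (70.2, next 24.5), Itga2 (76.8, next 39.0), Itgb1 (204, next 120.3), Itgb4 (110.5, next 82.6) and Itga5 (3.75, next 3.40). Itga3, Itgb5, Itga6 and Itgb8 were highest elsewhere. The share of all genes with their highest level in the regenerative-like cluster was not counted, so such counts describe the subunits only. Ranked within 1 time, over clusters with at least 50 cells of that library (an alternative chosen after seeing the data), the regenerative-like cluster was highest for 4 subunits at 0 h, 7 at 6 h, 5 at 15 h and 6 at 24 h. Itgav, Itgb1 and Itgb4 were highest there at each time, and Itga2 and Itgb6 at each time but 0 h, when Itga2 stood at 14.3 CPM there against 33.5 CPM in mitotic-like cells and Itgb6 at 17.9 CPM against 27.1 CPM (7 UMIs) in unnamed cluster 11. Itga5 was highest in another cluster at each single time. At the finer resolution of 1.0, Itga6 (234 CPM, next 222) and Itgb8 (1.74 CPM, next 1.52) were also highest in the regenerative-like cluster, which makes 8 of 10 subunits. The Poisson intervals of both overlapped those of the next cluster, with 14 UMIs for Itgb8. So did those of Itga5 in the first ranking (38 UMIs, next 8 UMIs). Itga3 and Itga6 were highest in unnamed clusters led by small RNAs or pseudogenes (136 and 203 CPM) and Itgb5 in unnamed cluster 4, led by Dmbt1 and Fcgrt (42.8 CPM). Itga6 also reached 192 CPM in enteroendocrine-like and 188 CPM in mitotic-like cells. Itga2 (2.73 CPM) and Itgb6 (3.17 CPM) were low in the enterocyte-like cluster 0, where Itgb5 stood at 27.9 CPM and Itga3 at 73.8 CPM. Itgb8 was highest in the stem-like cluster (1.72 CPM).

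Within cluster 7 the subunits differed with time as well. It held 113, 169, 207 and 288 cells at 0, 6, 15 and 24 h, or 3.85%, 3.95%, 7.16% and 13.0% of the cells. Itgb6 stood there at 17.9, 53.8, 102 and 149 CPM, Itga2 at 14.3, 40.0, 79.8 and 99.1 CPM and Itgav at 27.7, 50.4, 69.3 and 85.3 CPM. Itgb4 stood at 68.0, 90.4, 116 and 123 CPM, and Itgb5 at 22.4, 44.2, 32.6 and 32.4 CPM. In the stem-like cluster Itgb6 stood at 16.3, 27.5, 43.8 and 44.0 CPM, and in the mitotic-like cluster at 14.6, 18.3, 45.2 and 46.0 CPM, so higher levels at the later times were not confined to cluster 7.

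**Figure D4:**
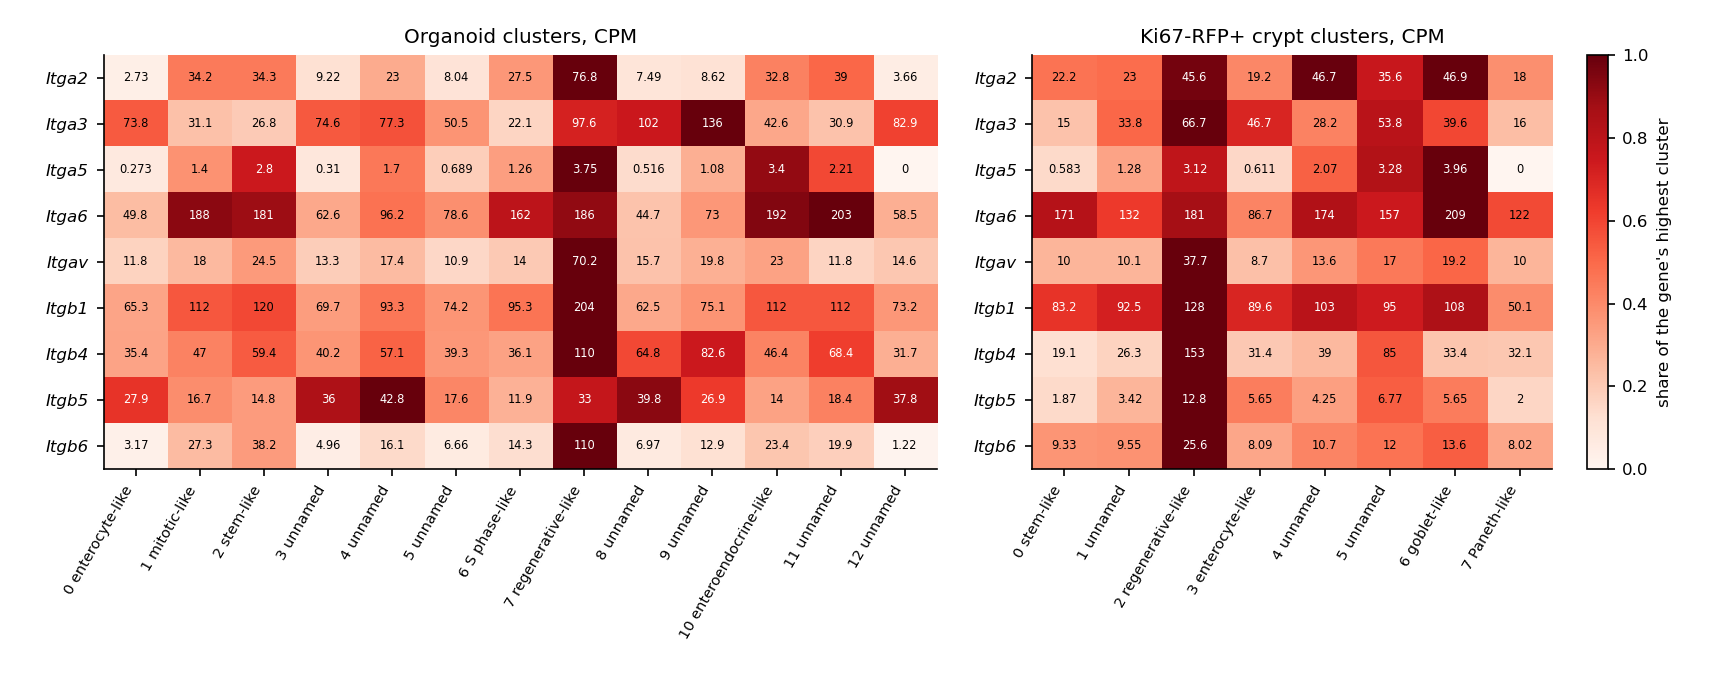
Mean level in CPM (numbers) of 9 subunits in the cell clusters of the organoid libraries (left) and of the Ki67-RFP+ crypt libraries (right) with at least 50 cells, shaded by the share of each gene's highest cluster in that panel. The regenerative-like clusters (7 and 2) hold the highest level of Itgav, Itgb1, Itgb4 and Itgb6 in both panels.

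In sorted Ki67-RFP+ crypt cells, 7 of 9 tested subunits were higher 56 h after 12 Gy and 0 lower, where 17.2% of 16397 genes were higher and 16.7% lower (edgeR quasi-likelihood test on summed UMIs, adjusted p under 0.05). The 2 libraries of irradiated mice give the only replicate spread, and the lone non-irradiated library is assumed to vary like them. Itgb4 had the largest called change: 25.0 CPM (23.1 to 27.0) without irradiation against 84.2 (79.4 to 89.2) and 109.8 (104 to 116) with it, a log2 change of 1.78 (edgeR adjusted p = 1.16e-05). Itgav stood at 9.86, 22.4 and 28.2 CPM (log2 change 1.18, edgeR adjusted p = 0.000606) and Itga2 at 22.0, 42.9 and 45.1 CPM (0.83, 0.00136). Itgb5 stood at 3.45, 7.86 and 9.60 CPM (1.15, edgeR adjusted p = 0.00606) and Itgb6 at 8.98, 16.2 and 19.1 CPM (0.79, 0.0102). Itga3 stood at 30.2, 46.1 and 57.2 CPM (0.60, edgeR adjusted p = 0.0157, and 0.38 with no test without irradiated replicate 2) and Itga5 at 0.854, 2.62 and 3.08 CPM (1.55, 0.0162).

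Itga6 (135, 180.3 and 170.5 CPM) and Itgb1 (88.5, 108 and 117 CPM) did not pass, with edgeR adjusted p = 0.335 and 0.430. Their CPM intervals in the non-irradiated library lie below those of both irradiated ones, and the TMM scaling used by the test lowers each log2 ratio of irradiated to non-irradiated cells by 0.18. Itgb8 had 0, 2 and 1 UMIs. With DESeq2, 3 of the 9 were called (Itga2, Itgav and Itgb4). The 2 IR libraries were past 1.5-fold above the other for 5 of 7 subunits with at least 10 CPM in any of the 3. Of all genes at that level, 19.8% were as far higher and 11.1% as far lower. Itgav (9.86 CPM) and Itgb6 (8.98 CPM) were under that level without irradiation. Both are among the 5 and met the level only through the irradiated libraries. Beside this, immune markers summed to 6.66 CPM in non-irradiated and 10.6 and 8.27 CPM in irradiated cells, and endothelial markers to 6.30, 11.4 and 12.2 CPM, nearly all of it Pecam1 (6.18, 10.7 and 11.6 CPM). Cdh5, a defining endothelial gene, was at 0 in all 3. Epithelial markers summed to 6307, 6793 and 7772 CPM. Non-irradiated crypts passed a 70-µm strainer and irradiated crypts a 100-µm one, and this step and irradiation cannot be told apart.

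**Figure D5:**
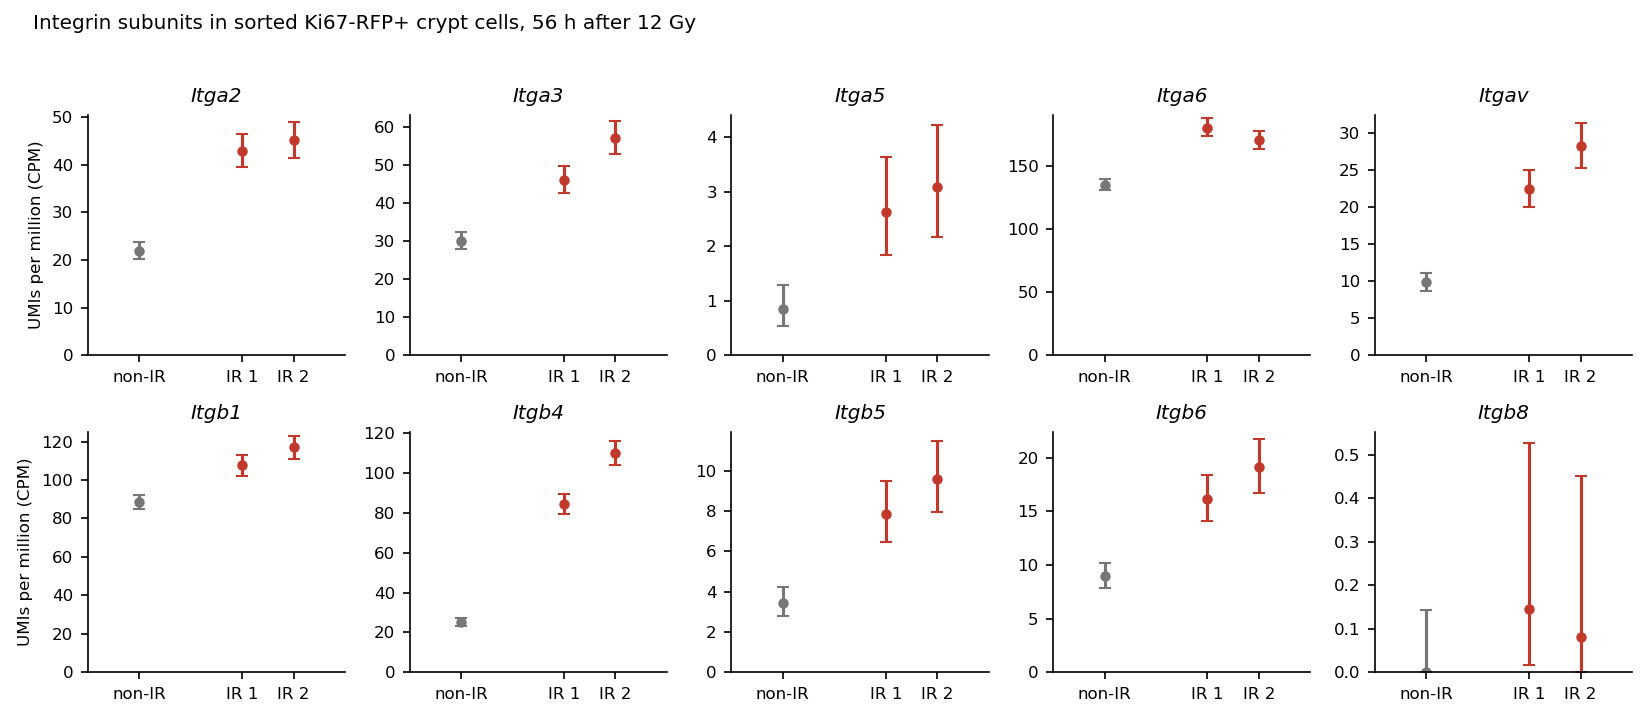
CPM (vertical axes, linear, starting at 0) of the 10 subunits in sorted Ki67-RFP+ crypt cells, with 1 non-irradiated library in grey, 2 libraries 56 h after 12 Gy in red, and bars for the exact Poisson 95% interval. Both irradiated libraries lie above the non-irradiated one for each subunit, by the widest ratio among subunits above 10 CPM for Itgb4.

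Most crypt clusters held cells of non-irradiated or of irradiated libraries alone, so cluster and irradiation cannot be told apart there. The regenerative-like cluster 2 held 35.5% and 49.4% of the irradiated libraries' cells and 0 of the 1846 non-irradiated cells, a count that allows a share of up to 0.163%. Itgb4 stood at 153 CPM in it, against 19.1 CPM in the stem-like cluster 0 of non-irradiated cells, and Itgav at 37.7 CPM against 10.0 CPM. Itgb6 stood at 25.6 CPM against 9.33 CPM. In this cluster both irradiated libraries gave like values of Itgb4 (154 and 153 CPM) and Itgb6 (23.5 and 27.1 CPM). The goblet-like cluster 6 was shared by all 3 libraries, with 68 non-irradiated cells and 38 and 20 irradiated cells. Itgb4 stood there at 16.8, 39.5 and 58.0 CPM, Itgav at 12.9, 25.3 and 22.1 CPM and Itgb6 at 5.17, 23.7 and 13.8 CPM, from 4, 15 and 5 UMIs in the case of Itgb6.

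Organoids and crypt cells can only be set side by side, since dose, time and cells differ. With vehicle, D7 IR organoids (4 Gy) had lower levels than D7 non-IR organoids for Itgb6, Itgav, Itga2 and Itgb5. Crypt cells 56 h after 12 Gy had higher levels of each of these. Itga6 and Itgb1 were also lower in these organoids and were not called in crypt cells. Itga5 overlapped in organoids and was higher in crypt cells. Itgb4 and Itga3 were higher with irradiation in both settings. The difference between the settings was not tested.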

How the data were processed

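The authors' deposited FPKM tables (per the file headers, 3 tables of 6 libraries) were used as given. The submitters' processing notes name TopHat2 2.1.0, Cuffnorm 2.2.1, Cuffdiff 2.2.1, STARsolo, STAR 2.7.10a and Salmon 1.4, with builds mm9, GRCm39 and mm39, but give no roles, and the strand setting is not stated there. The deposited single-cell matrices hold estimated counts of UMIs, partly fractional (8.67% to 22.0% of UMIs in fractional entries), which were summed per library and then rounded. All values were mapped to samples by the labels, and 0 FPKM columns were left out.

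For FPKM, log2(FPKM + 1) was fitted with limma 3.58.1 (robust empirical Bayes with trend, R 4.3.3) over genes whose mean FPKM was 1 or more, two-sided, with Benjamini-Hochberg adjustment over all genes and a threshold of 0.05. Each TGFB1 comparison used the 6 libraries of its table and each interaction the 12 of its 2 tables. Cells were kept with at least 500 UMIs, 250 genes and at most 20% mitochondrial UMIs. No doublet caller was run. Cells were clustered with scanpy 1.11.5 (Leiden resolution 0.6) without the integrin genes, and clusters of fewer than 50 cells were left out of rankings, a limit set after seeing the data. Crypt cells were tested with edgeR 4.0.16 (quasi-likelihood, TMM), with DESeq2 1.42.0 as an alternative. Intervals are exact Poisson 95% intervals and cover counting error only. Promoter motifs were matched on both strands. All scripts that test many genes were tested on simulated data.

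The integrin subunits, the partner lists and the marker lists were chosen with earlier results of these data known. All 10 subunits were described, and from each partner list up to 3 called genes with the largest change in a comparison could be named. Alternatives covered the pseudocount, filter, scaling, fit, replicate block, each left-out library, cell filters and cluster resolution. The scaling of levels across tables and the cluster ranking within each time were added after seeing the data. The ATAC peak lists were not analysed here, since no annotation of their build was at hand.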

Additional observations from a re-analysis of the deposited data

Results flagged for a closer look

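The response to TGFB1 differed between irradiated and non-irradiated D7 organoids by a test of the difference itself (limma interaction term on the log2 scale) for 6 of the 9 tested subunits. Over all genes tested, 25.3% had a higher and 27.8% a lower term, so a called term was common. The term was 0.91 for Itgb6, 0.89 for Itgb5, 0.32 for Itga5 and 0.31 for Itga3, a larger response with irradiation, and -0.73 for Itga6 and -0.66 for Itga2, a smaller one. The term of Itga5 was not called with a pseudocount of 0.1.

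Between D7 and D11 the response of irradiated organoids differed for 6 of the 9 subunits, a share near that of all genes tested, of which 31.5% had a higher and 33% a lower term. It was smaller at D11 for Itgb5 (-2.49), Itgb6 (-1.55), Itgb4 (-0.58), Itgav (-0.41) and Itgb1 (-0.40), and larger for Itga6 (0.33). For Itgb5 the 3 TGFB1 libraries lay above the 3 vehicle libraries at D7 and below them at D11. The day and the time since the exposure to TGFB1 cannot be told apart.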

How the results depend on the processing

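The counts of called subunits in the 3 TGFB1 comparisons stayed at 9, 9 and 8 higher with 1 lower at D11 under every alternative that kept the filter, leaving out each library included, and with no filter Itgb8 joined them. In the irradiation interaction 4 were higher (3 with a pseudocount of 0.1, 5 with no filter) and 2 to 3 lower. In the day interaction 1 was higher and 4 to 6 lower, with 5 to 6 when a library was left out. The term of Itga3 between the days was 0.08 and turned to -0.00103 without D11 IR vehicle replicate 1, and was called in neither (limma adjusted p between 0.111 and 0.994 without each library in turn). In crypt cells 7 subunits were called with edgeR and 3 with DESeq2. The cause was not tested. Counts of levels across tables were the same with median-ratio scaling of the 18 libraries, chosen after seeing the data. From 6 h to 15 h, 1 of 8 subunits was past 1.5-fold and 2 were with at most 10% mitochondrial UMIs. From 15 h to 24 h, 0 were and 1 was with whole-number entries only. With at most 10% mitochondrial UMIs, 5 in place of 6 were past it from 0 h to 15 h, and 4 in place of 5 of 7 in crypt cells, where whole-number entries gave 6 of 8. Among crypt clusters of at least 50 cells, the regenerative-like cluster was highest for 6 subunits, and for 5 at a resolution of 1.0, without Itga3. Smaller clusters, not ranked, held higher levels of some of these. In enterocyte-like cluster 8 (44 cells) Itga3 stood at 138 CPM, against 66.7 CPM in the regenerative-like cluster. Itgb5 stood there at 26.1 CPM (10 UMIs), against 12.8 CPM. In unnamed cluster 9 (8 cells) Itgav stood at 116 CPM (6 UMIs), against 37.7 CPM. The share of all genes highest in the regenerative-like cluster was not counted. Over the values of single subunits under the alternatives, 406 stayed the same, by a rule that differed with the kind of value. For tested values it was direction and call, and for crypt values without an irradiated library direction alone. For organoid CPM it was a value within the Poisson interval, and 33 of these values moved beyond it. Of the other values, 7 passed the threshold only in an alternative, 6 lost it and 1 changed sign. Bulk fits without a library were counted only where call or sign changed.

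Replicate numbers did not pair the samples: same-numbered vehicle and TGFB1 libraries had correlated deviations between -0.0856 and 0.213, and not every library correlated best with its own number. With the replicate block the counts were the same, except that 6 subunits had a lower term in the day interaction, with Itga2 added (limma adjusted p = 0.0222). The planned ATAC alternatives were not run. Read depth of the FPKM libraries is unknown, and 1 library a time or condition limits the single-cell values to description.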
